A study of Mus musculus with 2 samples.

Results

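Pericytes are the mural cells of brain capillaries, and here they were 962 of 24906 kept cells (3.86%) from the hippocampus of 5xFAD mice. A cell was counted as a pericyte when at least 0.5% of its UMIs, and at least 3 UMIs, came from Vtn, Higd1b, Kcnj8, Atp13a5, Ndufa4l2 and Cox4i2. It also had to stay under 0.5% for the smooth muscle genes Acta2, Tagln and Myh11, under 0.7% for the endothelial genes Cldn5, Flt1, Ly6c1, Itm2a and Pecam1, and under 0.5% for the fibroblast genes Col1a1, Col1a2 and Dcn. A UMI is a molecular tag that marks 1 captured RNA molecule. Since measured values chose the cells, the levels of these genes describe the choice and carry no test.

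The strain label of both libraries and the series text give 5xFAD, whose transgenes are active in neurons and lead to amyloid plaques, although the title of the GFP library calls it Ctrl. The NeuroD1 library came from hippocampus that had received AAV9-GFAP::NeuroD1-P2A-GFP, and the GFP library from hippocampus that had received AAV9-GFAP::GFP. The GFAP promoter is active mainly in astrocytes, so pericytes are not the cells the vectors were built to express in. Both groups are labelled 6 months, and the series text gives 3 weeks after injection and 3 mice per group. Each group is 1 library, and the sources used here do not say whether the mice were pooled. No test between groups is possible: every interval printed with a value below is a 95% interval for counting error alone, and differences are between these 2 libraries.

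Pericytes sit in the basement membrane they share with capillary endothelial cells and are held there by PDGF-B from the endothelium acting on PDGFRB. They help to set capillary tone and the blood-brain barrier, and ATP-sensitive potassium channels made of Kir6.1 (Kcnj8) and SUR2 (Abcc9) are typical of them. Loss or dysfunction of pericytes has been described in Alzheimer's disease and its mouse models.

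The libraries differed in more than the vector. There were 13402 barcodes with 51236521 UMIs after NeuroD1 and 11739 barcodes with 17504950 UMIs after GFP alone. Median depth was 2599 and 1195 UMIs per kept cell. Xist, the RNA of the inactive X chromosome, was at 0.0393 CPM (UMIs scaled to a library or class total of 1e6) in the NeuroD1 and 104 in the GFP library, while Ddx3y, carried on the Y chromosome, stood at 70.0 and 0.0575. Ttr, a choroid plexus transcript, made up 12.7% and 2.11% of all UMIs. Depth, sex-linked transcripts, choroid plexus content and vector cannot be told apart between the groups. The libraries shared 99 cell barcodes, and no pericyte of 1 library shared its barcode with a pericyte of the other.

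The pericytes numbered 619 in the NeuroD1 library, or 4.66% (4.31 to 5.04, Clopper-Pearson) of 13271 kept cells. In the GFP library they numbered 343, or 2.95% (2.65 to 3.27) of 11635. The ratio of shares was 1.58 (1.39 to 1.80). This ratio depended on the denominator. Cells of the other classes, here and below, passed their own gate, no other gate and not the pericyte gate. Per 100 cells passing the endothelial gate, there were 30.8 pericytes in the NeuroD1 library (2007 endothelial cells) and 34.6 in the GFP library (991 endothelial cells), a ratio of 0.891. Per 100 cells passing the smooth muscle gate there were 342 (181 smooth muscle cells) and 201 (171 smooth muscle cells). Microglia made up 33.6% of kept cells in the GFP library and 9.92% in the NeuroD1 library, and outside the microglia and choroid plexus gates the share ratio was 1.17. As an alternative added after seeing the data, the UMIs of the NeuroD1 library were drawn down at random by the ratio of the median depths, and barcodes left with under 500 UMIs were dropped. The remaining 11441 cells had a median of 1321 UMIs, above the 1195 of the GFP library; 360 of them were pericytes (3.15%) and the ratio was 1.07.

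Depth touched the lower edge of the GFP pericytes. The files hold no barcode under 500 UMIs, and 121 of the 343 GFP pericytes (35.3%) had 500 to 599 UMIs, against 16 of 619 (2.58%) in the NeuroD1 library. Over all kept cells the same band held 8.54% and 2.89%. Pericyte depth ranged from 503 to 10365 UMIs with a median of 1178 in the NeuroD1 library, and from 500 to 3524 with a median of 662 in the GFP library. After the NeuroD1 library was drawn down, 34.4% of pericytes lay in the 500 to 599 band. How many pericytes of the GFP library fell below 500 UMIs is not measured here.

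**Figure D1:**
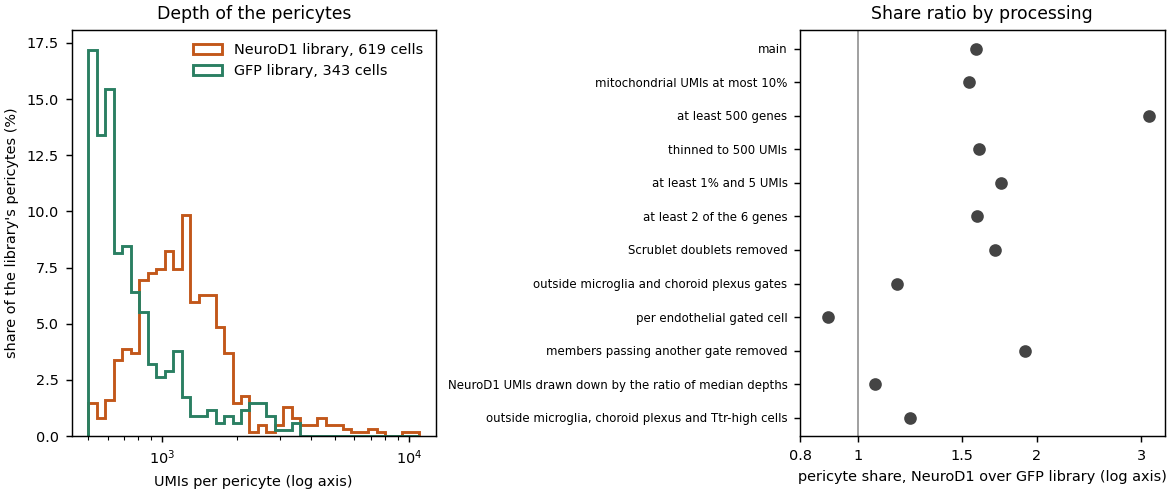
Left, the depth of single pericytes (UMIs, log axis) as a share of each library's pericytes; right, the ratio of the pericyte share between libraries (NeuroD1 over GFP, log axis) under each processing setting, with the line at equality. The GFP pericytes pile up against the 500 UMI floor of the files, and the ratio runs from 0.891 per endothelial cell to 3.09 when 500 genes are required.

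The rule genes were high in both libraries. Vtn, which encodes the adhesion protein vitronectin, was at 20080 CPM (19784 to 20378) in NeuroD1 pericytes and 16728 (16264 to 17201) in GFP pericytes. Kcnj8, the pore of the ATP-sensitive potassium channel, was at 1893 and 1335 CPM, and Atp13a5, a P5-type transport ATPase, at 1105 and 1058. Higd1b, Ndufa4l2 and Cox4i2 encode mitochondrial proteins of hypoxia-related families and stood at 3227 and 2783, 2781 and 2034, and 1236 and 1210 CPM. The share of UMIs from the 6 genes had a median of 3.48% per NeuroD1 pericyte and 3.09% per GFP pericyte. At least 5 of the 6 genes were seen in 479 NeuroD1 pericytes (77.4%) and 138 GFP pericytes (40.2%), cells of lower depth.

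The threshold itself was thinly populated. Just inside it, at 0.5 to 0.6% rule-gene UMIs, lay 6 NeuroD1 and 11 GFP cells, and just outside, at 0.4 to 0.5%, lay 8 and 13. Of the cells just inside, 5 of 6 and 8 of 11 also passed the gate of another cell type. Of 862 NeuroD1 and 434 GFP cells with enough pericyte UMIs, the limits on neighbours removed 243 and 91. The endothelial limit removed 167 and 35, the smooth muscle limit 50 and 48, and the fibroblast limit 27 and 9.

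Genes that the rule did not use also marked these cells, as a description, since the cells were chosen by expression. Rgs5, a regulator of G-protein signalling that marks brain mural cells, was at 11683 and 8148 CPM and was seen in 97.7% and 96.5% of pericytes. Of 1034 genes with at least 50 UMIs in the pericytes of each library, 85 stood above every other gated class in both libraries, and 36 by at least 2-fold in both.

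Abcc9, the regulatory subunit that pairs with Kcnj8, was at 604 CPM (554 to 658) and 414 CPM (343 to 494) in pericytes and at 0 UMIs in both smooth muscle sums. Abcc9 was seen in 50.6% and 25.4% of pericytes, or 28.3% and 20.4% when every cell was thinned to 500 UMIs, against 0.152% and 0.128% of microglia, which should lack it, at median depths of 1836.5 and 1291 UMIs. Enpep, the aminopeptidase of angiotensin breakdown, was at 419 and 403 CPM, and Ggt1, which cleaves glutathione, at 280 and 207. Sod3, the extracellular superoxide dismutase, was at 3264 and 1942 CPM, with fibroblasts next at 266 and 218. The receptors P2ry14 (for UDP-glucose), Pth1r (for parathyroid hormone and its related peptide) and Tbxa2r (for thromboxane) were at 1888 and 1790, 630 and 654, and 341 and 268 CPM. Pde8b, a cAMP phosphodiesterase, and Art3, an ADP-ribosyltransferase family member, were at 357 and 241 and at 1432 and 973 CPM. Gpc3, a glypican, was at 240 and 258 CPM and Plxdc1 at 272 and 169. Nts, the precursor of the peptide neurotensin, was at 206 and 288 CPM, with neurons next at 55.5 and 12.2. The transcripts 5033404E19Rik and Gm14005, which have no assigned function here, were at 301 and 193 and at 186 and 197 CPM.

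**Figure D2:**
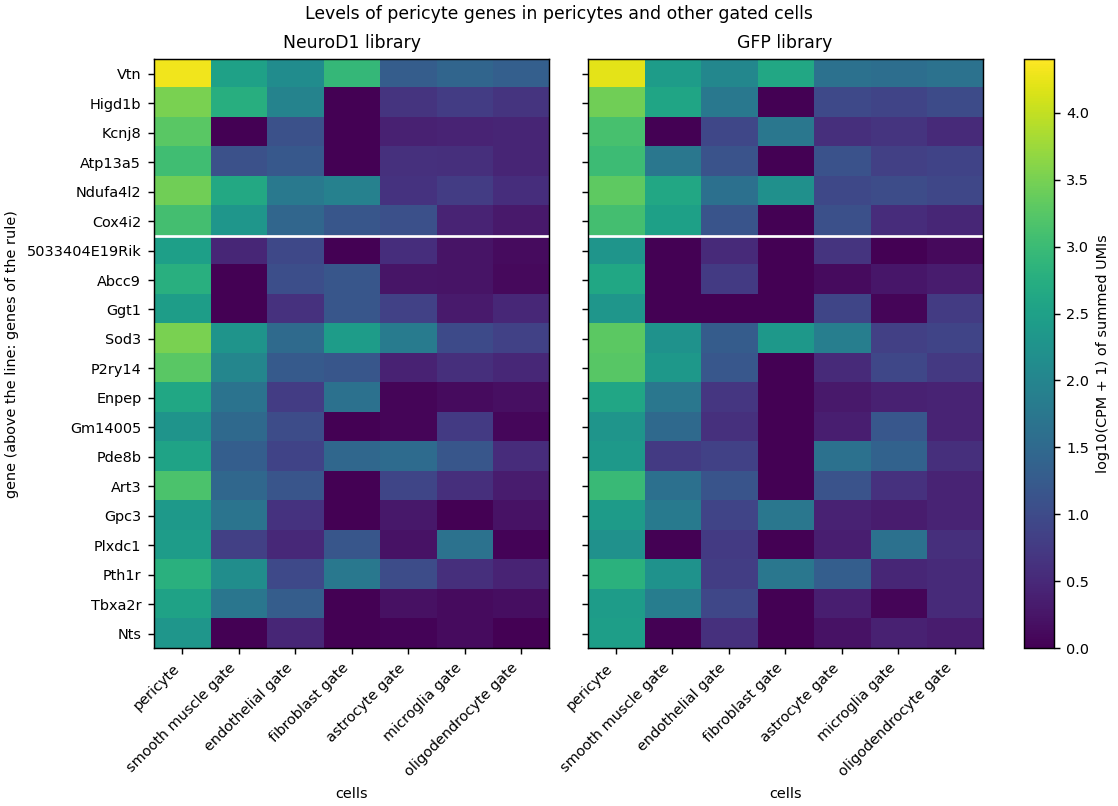
Levels, as log10 of CPM + 1 of summed UMIs (color), of the 6 genes of the rule (above the white line) and other genes named by a fixed rule, in pericytes and 6 other gated cell classes of each library. The pericyte column is brightest for every gene in both libraries, and Abcc9 and Ggt1 are dark in smooth muscle.

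The split between paralogs of mitochondrial proteins differed between pericytes and their vascular neighbours. Against smooth muscle the difference in percentage points was least for Higd1b. Cox4i2, the alternative subunit 4 of cytochrome c oxidase, made up 47.5% (45.5 to 49.6) of Cox4i1 and Cox4i2 UMIs in NeuroD1 pericytes and 40.8% (37.5 to 44.1) in GFP pericytes. The share was 11.3% and 14.9% in smooth muscle and 2.54% and 0.911% in endothelium. Ndufa4l2 made up 87.2% and 85.8% of Ndufa4 and Ndufa4l2 UMIs in pericytes, 26.1% and 27.5% in smooth muscle and 5.33% and 3.38% in endothelium. Higd1b made up 98.0% and 96.7% of Higd1a and Higd1b UMIs in pericytes, 81.2% and 80.0% in smooth muscle and 46.3% and 26.4% in endothelium. Cox4i2, Ndufa4l2 and Higd1b are rule genes, so the high pericyte shares follow in part from the choice of cells. The lower smooth muscle and endothelial shares do too, since cells that passed the pericyte gate were left out of those classes. UMIs were not scaled for transcript length, so a share is compared between classes and not read as a molar ratio.

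Other cells' transcripts were present among the pericytes of both libraries. Another cell type gate was passed by 53 NeuroD1 pericytes (8.56%) and 84 GFP pericytes (24.5%): the astrocyte gate by 26 and 28, the oligodendrocyte gate by 18 and 18, the microglia gate by 2 and 32 and the ependymal gate by 6 and 8. Scrublet called 39 (6.30%) and 48 (14%) of the pericytes doublets. All 7 microglia markers were detected in both sums, at 0.0328% of UMIs in NeuroD1 pericytes and 0.440% in GFP pericytes, against 3.84% and 2.48% in microglia themselves. The 6 choroid plexus markers, nearly all Ttr, took 2.72% and 0.539%, with Otx2 at 0 in the GFP library. The 5 haemoglobin and red cell markers had 4913 UMIs in NeuroD1 pericytes, 4754 of them in 10 cells, and 1 UMI in GFP pericytes. The 9 smooth muscle markers took 0.0697% and 0.0749%, with Cnn1 at 0 in the GFP library. The 13 endothelial markers took 0.139% and 0.0847%, with Ptprb at 0 in the GFP library. Fibroblast markers took 0.173% and 0.106%, and astrocyte markers 0.207% and 0.189%. The 7 neuron markers had 56 and 32 UMIs (0.00638% and 0.0108%), with 3 detected in NeuroD1 and 5 in GFP pericytes. Of these markers, Slc17a7 and Reln were at 0 in both. Values over the 566 NeuroD1 and 259 GFP pericytes that passed no other gate are therefore given beside the lists and the main genes; in these the microglia markers took 0.0233% and 0.129%.

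The vector GFP transcript could not be told apart from background in pericytes that passed no other gate. No NeuroD1 pericyte had a UMI of the vector GFP feature (0 of 619 cells, which allows a share of cells with a UMI of up to 0.485%). Of the GFP pericytes, 32 of 343 pericytes had one (9.33%, 6.47 to 12.9). Among pericytes that passed no other gate the share was 11 of 259 (4.25%, 2.14 to 7.47; median depth 618 UMIs). Microglia of that library, which should not use the promoter, had it in 6.37% of cells at a median of 1291 UMIs, and astrocytes in 60.5%. These shares are at unlike depth. Scaled to CPM, GFP was at 87.3 (49.9 to 142, 16 UMIs) in GFP pericytes that passed no other gate. It was at 79.0 in microglia, 68.1 in endothelium, 40.5 in smooth muscle and 6604 in astrocytes. The ND1 vector feature had 0 UMIs in the pericytes of both libraries, but also 0 in the astrocytes of both. Its absence therefore cannot tell whether the NeuroD1 vector reached pericytes. Neurod1 also had 0 UMIs in the pericytes of both libraries, and 29 and 8 in astrocytes. In the NeuroD1 library vector GFP was low even in astrocytes, at 44.9 CPM and in 6.07% of cells. The 0 of 619 pericytes there thus decides little about the vector.

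Expression was compared between the libraries over 6107 genes with at least 30 UMIs in the 2 pericyte sums together, 877657 and 295024 UMIs. At least 2-fold higher CPM in the NeuroD1 library was found for 465 genes (7.61%), and at least 2-fold lower for 398 (6.52%). The median gene had a log2 ratio (NeuroD1 over GFP, 0.5 UMI added to each sum) of 0.08. Counts for gene lists below are read against these 2 percentages, and list medians against that median. In pericytes that passed no other gate, 7.39% of 5048 measured genes were at least 2-fold higher and 5.8% lower. Their median log2 ratio was 0.015, and list values given for those cells are read against these figures.

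Genes of pericyte identity that the rule did not use were somewhat higher in the NeuroD1 library, with a median log2 ratio of 0.49 over 31 genes, 3 of them at least 2-fold higher (7.61% of all genes) and 1 at least 2-fold lower (6.52% of all genes). The median was 0.17 over pericytes that passed no other gate, with 2 of 31 higher and none lower. Pdgfrb, the receptor that anchors pericytes to the endothelium, was at 592 and 369 CPM, a ratio of 1.6 (1.30 to 1.99). Rgs5 had a ratio of 1.43 (1.37 to 1.5) and Abcc9 of 1.46 (1.2 to 1.79). In pericytes that passed no other gate the ratios were smaller. They were 1.39 (1.10 to 1.77) for Pdgfrb, 1.24 (1.18 to 1.30) for Rgs5 and 1.35 (1.08 to 1.71) for Abcc9. Cspg4, which encodes the NG2 proteoglycan, lay the other way at 790 and 1058 CPM, a ratio of 0.747 (0.652 to 0.856). The gene furthest down was the tetraspanin Cd9, at 148 and 464 CPM, which was below 25% of the level in another cell class.

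Rgs4, a regulator that shortens Gq and Gi signalling, was the list member with the largest difference. It had 2992 UMIs (3409 CPM) in NeuroD1 pericytes and 251 UMIs (851 CPM) in GFP pericytes, a ratio of 4.01 (3.52 to 4.58). After thinning to 500 UMIs per cell, 76.9% of NeuroD1 pericytes and 33.2% of GFP pericytes had a UMI of Rgs4 (92.7% and 42.3% unthinned). Microglia held Rgs4 at 9.68 and 5.21 CPM. The ratio was 3.44 (2.98 to 3.98) in pericytes that passed no other gate. Smooth muscle cells had Rgs4 at 2225 and 711 CPM, so the direction was the same in both mural classes. Gper1, a membrane estrogen receptor, was at 792 and 363 CPM, a ratio of 2.18 (1.78 to 2.70). Phlda1 was at 728 and 285 CPM, a ratio of 2.56 (2.03 to 3.25).

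In PDGF and Notch signalling, 3 of 13 measured genes were at least 2-fold higher and none lower, with a median log2 ratio of 0.52. These were the sphingosine-1-phosphate receptor S1pr3 at 513 and 193 CPM (ratio 2.65, 2.01 to 3.56), the Notch target and feedback inhibitor Nrarp at 141 and 44.1 (3.21, 1.81 to 6.19), and the Notch target Hey2 at 64.9 and 30.5 (2.13, 1.05 to 4.89). Notch3, the mural Notch receptor, was at 243 and 166 CPM and its target Heyl at 303 and 159. The ligands Jag1 and Pdgfa were at 37.6 and 57.6 and at 75.2 and 88.1 CPM. The median was 0.47, with 2 of 13 higher and 1 lower, in pericytes that passed no other gate. In TGF-beta and BMP signalling 1 of 18 genes was at least 2-fold higher and 3 lower, with a median of 0.05. The higher gene was the BMP effector Smad1 at 57.0 and 23.7 CPM. The lower ones were the shared effector Smad4 at 11.4 and 94.9 CPM (10 and 28 UMIs), the repressor Skil at 9.12 and 74.6 (8 and 22 UMIs) and the receptor Tgfbr1 at 28.5 and 81.3. Among pericytes that passed no other gate, 1 of 14 genes was higher and none lower, with a median of 0.12.

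None of 23 measured ion channel and pump genes reached 2-fold over all pericytes, with a median log2 ratio of 0.27. Over pericytes that passed no other gate, 3 of 21 were at least 2-fold higher and none lower, with a median of 0.21. The sodium pump subunit Atp1b2 was at 2502 and 2115 CPM, and the chloride channel Ano1 at 244 and 254. Among 23 vasoactive receptor and cGMP genes the median was 0.34, and the 4 at least 2-fold higher were Rgs4, Gper1, S1pr3 and the endothelin receptor Ednrb, at 69.5 and 20.3 CPM (61 and 6 UMIs). The other endothelin receptor, Ednra, was at 194 and 102 CPM, a ratio of 1.90 (1.29 to 2.91), and the adenosine receptor Adora2a at 213 and 125 CPM. P2ry14 and Pth1r had ratios of 1.05 (0.956 to 1.17) and 0.963 (0.816 to 1.14). The vasoactive list had 3 of 22 genes higher and 2 lower, with a median of 0.13, in pericytes that passed no other gate.

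The contractile genes had a median log2 ratio of 0.08 over 27 genes, close to that of the median gene. The actin-binding proteins Cnn2, at 255 and 112 CPM, and Lmod1, at 39.9 and 16.9, were at least 2-fold higher, and Actn1, at 20.5 and 61.0, lower. Caldesmon (Cald1) was at 5065 and 3698 CPM and the myosin light chain Myl9 at 2757 and 2447. Basement membrane and matrix genes had a median of -0.11 over 27 genes, and the protease Adamts1, at 130 and 288 CPM, was the single gene past 2-fold. The collagen IV chains Col4a1 and Col4a2 were at 342 and 410 and at 150 and 176 CPM, ratios of 0.833 (0.673 to 1.04) and 0.853 (0.615 to 1.2). Sparc, a collagen-binding protein, was at 2123 and 1186 CPM, a ratio of 1.79 (1.6 to 2.01), and the protease inhibitor Timp3 at 363 and 186. The medians of these lists were -0.14 and -0.34 in pericytes that passed no other gate, each with 1 of 27 genes lower and none higher.

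Among 15 genes of exchange with the endothelium, 3 were at least 2-fold higher and none lower, with a median log2 ratio of 0.28. Gja4, the gap junction protein connexin 37, was at 587 and 275 CPM (ratio 2.14, 1.69 to 2.74). The chemokine-scavenging receptor Ackr3 was at 473 and 234 CPM (2.02, 1.56 to 2.65) and the growth factor binding protein Igfbp2 at 346 and 105 (3.30, 2.27 to 4.94). Gjc1, connexin 45, was at 907 and 583 CPM. Over pericytes that passed no other gate, 1 of 13 was higher and none lower, with a median of 0.14, and without Scrublet doublets the median was 0.07. The hypoxia and glycolysis list had a median of 0.16 over 21 genes, with Ndrg1 past 2-fold at 91.2 and 37.3 CPM, and of 0.27 in pericytes that passed no other gate, with 1 of 19 lower. Gapdh, whose many genomic copies make its reads hard to place, had 6 and 1 UMIs and was not measured.

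**Figure D3:**
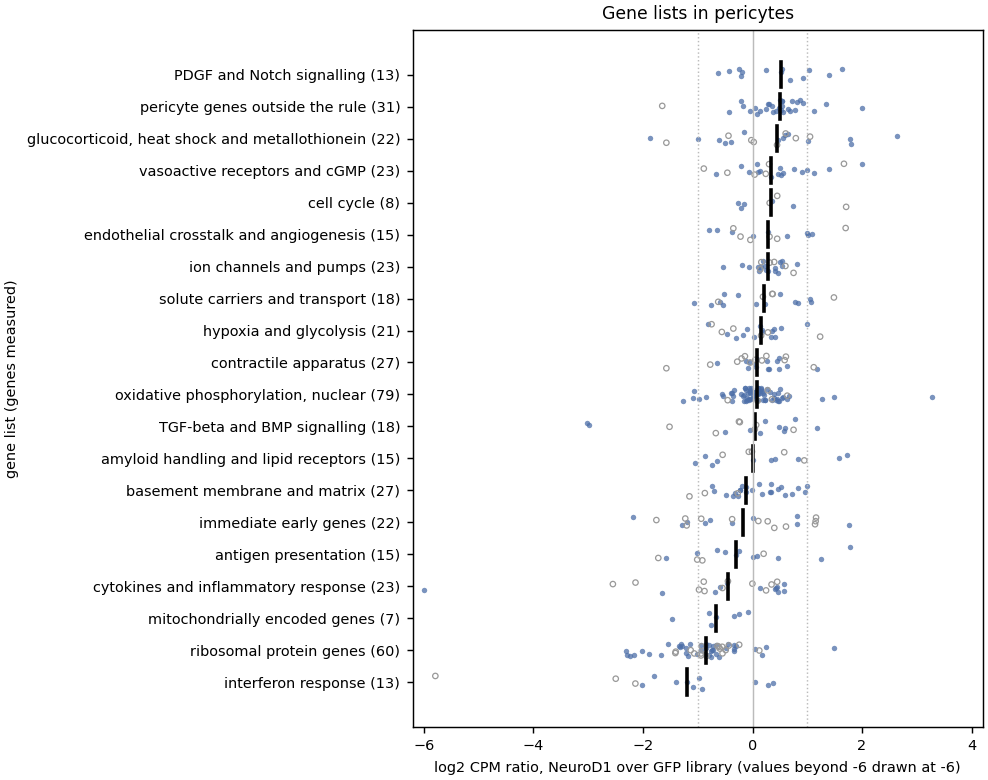
Log2 ratio of CPM between the libraries (positive where NeuroD1 is higher) for each measured gene of 20 lists in pericytes, with the median as a black bar. Filled points are genes at 25% or more of the highest gated class in the library where they are higher, open points the rest, and dotted lines mark 2-fold; the interferon list has the lowest median, -1.19, and the PDGF and Notch list the highest, 0.52.

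Hspa1a, an inducible HSP70 chaperone gene, had 8584 UMIs (9781 CPM) in NeuroD1 pericytes and 461 UMIs (1563 CPM) in GFP pericytes, a ratio of 6.26 (5.70 to 6.89). It was seen in 70.9% and 28.0% of pericytes after thinning to 500 UMIs (78.7% and 33.8% unthinned). In the GFP library, 10 cells held 231 of the 461 UMIs. Hspa1b, its neighbouring copy, had 615 and 60 UMIs, a ratio of 3.45 (2.64 to 4.57). The small chaperone Hspb1 was at 1846 and 908 CPM, a ratio of 2.03 (1.79 to 2.32). In pericytes that passed no other gate the Hspa1a ratio was 5.95 (5.33 to 6.66). The Hspa1a and Hspa1b transcripts are nearly identical, so how their reads were divided is uncertain.

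The heat shock difference ran the other way in smooth muscle. Hspa1a was at 4148 and 7426 CPM in cells of the smooth muscle gate, and at 8556 and 3964 in endothelial cells. Hspa1b was at 343 and 810 CPM in smooth muscle and Hspb1 at 3195 and 5132. The full list of glucocorticoid, heat shock and metallothionein genes had a median log2 ratio of 0.45 in pericytes over 22 genes, with 5 at least 2-fold higher and 2 lower, and of -0.53 in smooth muscle and -0.13 in endothelium over the same genes. The pericyte median was 0.43 in pericytes that passed no other gate, with 4 of 22 higher and 2 lower, and turned to -0.20 when Scrublet doublets were removed. Not all chaperones followed: Hsph1, a co-chaperone of HSP70, was at 29.6 and 108 CPM, and Hspa5, the chaperone of the endoplasmic reticulum, at 1020 and 1552. Metallothioneins Mt1 and Mt2 had log2 ratios of 0.02 and -0.02. The stress regulator Atf4 was at 52.4 and 13.6 CPM (46 and 4 UMIs), and the cell cycle inhibitor Cdkn1a at 54.7 and 163.

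**Figure D4:**
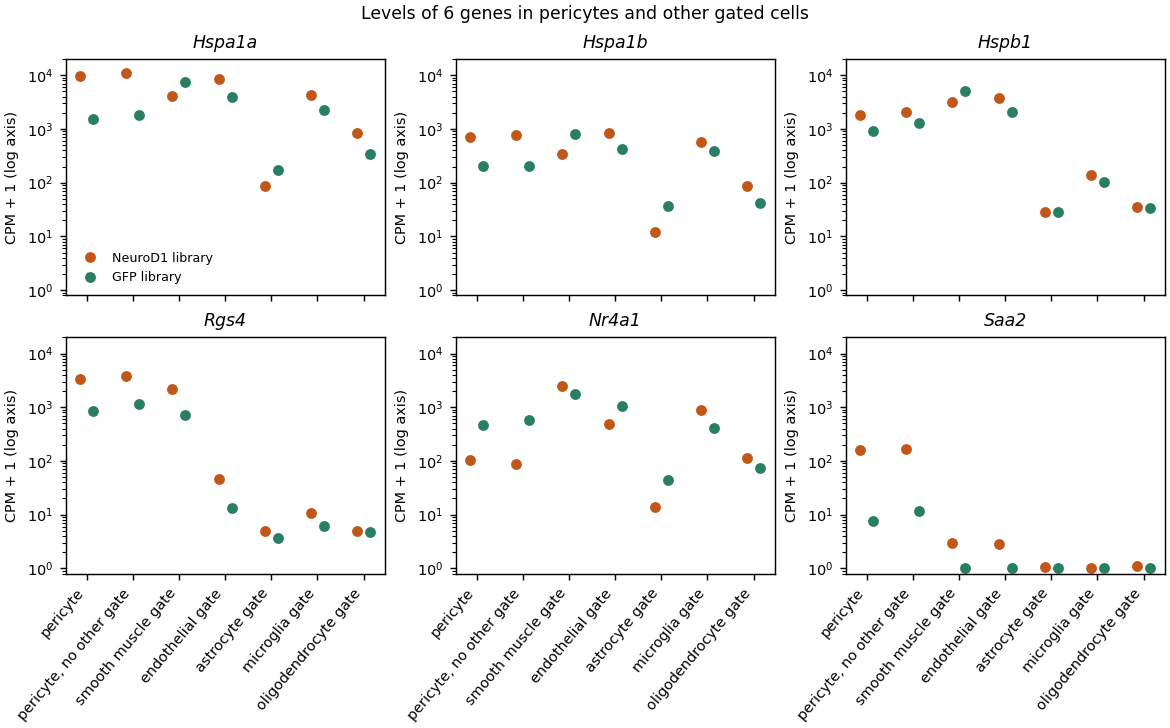
Levels (CPM + 1, log axis) of 6 genes in pericytes, pericytes that passed no other gate and 5 other gated classes, with the NeuroD1 library in orange and the GFP library in green. Hspa1a, Hspa1b and Hspb1 are higher in the NeuroD1 library in pericytes and endothelium and lower in smooth muscle, and Saa2 is seen above 5 CPM in pericytes alone among these classes.

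Serum amyloid A genes, acute phase apolipoproteins, gave the largest ratio of the genes named by rule. Saa2 had 139 UMIs (158 CPM) in NeuroD1 pericytes and 2 UMIs (6.78 CPM) in GFP pericytes, a ratio of 23.4 (6.35 to 195). Saa1 had 149 and 6 UMIs, a ratio of 8.35 (3.75 to 23.1). In pericytes that passed no other gate the ratios were 15.4 (4.16 to 128) and 6.70 (2.80 to 21.0). At least 1 UMI of either was seen in 165 NeuroD1 pericytes (26.7%) and 6 GFP pericytes (1.75%), with at most 11 UMIs in a cell. After thinning to 500 UMIs per cell, Saa2 was seen in 7.75% and 0.583%. Saa1 had 0 UMIs in smooth muscle of both libraries, 19 and 0 in endothelium, and 0 and 1 in microglia. Saa1 and Saa2 are close copies, and their reads may have been divided between them.

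Promoter sequences are shown for these 2 gene pairs because both members of each pair were higher in the NeuroD1 library. They are the 250 bases before the annotated start, 5′ to 3′ on the gene's strand, from RefSeq on GRCm38.p6, a build other than the mm39 of the deposited counts. Capitals in the Hspa1a and Hspa1b promoters mark GAANNTTC, the core of a heat shock element, and in the Saa1 and Saa2 promoters TTNNGCAA, a C/EBP-type motif; both strands were searched, and genes and motifs were chosen after the values were seen.
Hspa1a, chr17:34972157-34972406, minus strand: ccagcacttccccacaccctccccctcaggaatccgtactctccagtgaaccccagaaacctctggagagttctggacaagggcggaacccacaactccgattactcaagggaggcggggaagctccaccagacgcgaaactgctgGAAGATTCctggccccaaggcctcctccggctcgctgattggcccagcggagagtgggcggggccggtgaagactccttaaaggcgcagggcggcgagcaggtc
Hspa1b, chr17:34959239-34959488, minus strand: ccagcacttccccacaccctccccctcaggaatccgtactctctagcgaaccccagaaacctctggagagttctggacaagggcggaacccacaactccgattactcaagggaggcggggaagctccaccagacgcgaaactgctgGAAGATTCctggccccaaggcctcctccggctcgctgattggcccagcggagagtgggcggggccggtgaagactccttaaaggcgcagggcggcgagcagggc
Saa1, chr7:46742981-46743230, minus strand: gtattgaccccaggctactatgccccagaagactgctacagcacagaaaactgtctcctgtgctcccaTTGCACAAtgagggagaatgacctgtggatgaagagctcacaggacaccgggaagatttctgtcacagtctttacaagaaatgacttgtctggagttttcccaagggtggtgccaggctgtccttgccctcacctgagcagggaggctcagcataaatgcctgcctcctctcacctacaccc
Saa2, chr7:46751583-46751832, plus strand: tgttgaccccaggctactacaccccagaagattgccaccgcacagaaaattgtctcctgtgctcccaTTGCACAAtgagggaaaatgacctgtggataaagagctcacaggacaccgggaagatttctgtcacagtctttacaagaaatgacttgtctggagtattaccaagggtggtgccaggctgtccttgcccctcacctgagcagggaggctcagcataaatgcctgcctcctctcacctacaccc

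The Hspa1a and Hspa1b promoters were 98.8% identical over 250 aligned columns and each held GAANNTTC once, with its first base 104 bases before the start. The Saa1 and Saa2 promoters were 94.8% identical over 251 columns and held TTNNGCAA once, 182 and 183 bases before the start. Among 32851 promoter windows of this length, 6.69% held GAANNTTC and 9.56% held TTNNGCAA. An NF-kB-type motif, found in 1.41% of windows, was not among the letters of these 4.

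The other genes named as higher by rule were of mixed function. Uchl1, a deubiquitinating enzyme best known from neurons, was at 389 CPM in NeuroD1 and 47.5 in GFP pericytes (ratio 8.19, 4.81 to 15.1), against 5.79 and 0 in smooth muscle and 14.7 and 3.10 in endothelium. Rsrp1 was at 619 and 81.3 CPM (7.61, 5.06 to 12). It was also higher in the NeuroD1 library in endothelium (483 and 61.2 CPM), smooth muscle (528 and 112), astrocytes (281 and 135) and microglia (332 and 84.4). Atp5g1, a subunit of the ATP synthase ring, was at 148 and 13.6 CPM (130 and 4 UMIs). The direction was the same in endothelium (96.7 and 2.32 CPM), smooth muscle (110 and 0), astrocytes (136 and 5.21) and microglia (77.1 and 5.21). Amotl2, of the angiomotin family, was at 109 and 16.9 CPM (96 and 5 UMIs), the small GTPase Rrad at 227 and 50.8 (4.46, 2.64 to 8.12), Ankrd46 at 66.1 and 6.78 (58 and 2 UMIs) and the kinase Snrk at 231 and 54.2 (4.26, 2.56 to 7.6).

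**Figure D5:**
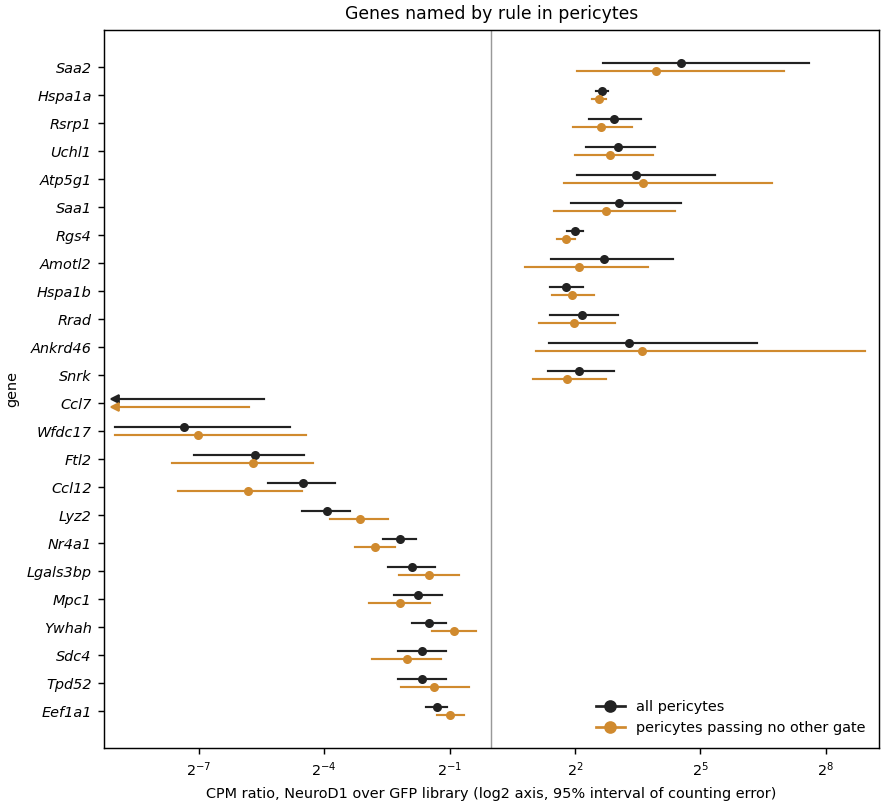
CPM ratio (NeuroD1 over GFP library, log2 axis) with 95% counting intervals for the 12 highest and 12 lowest genes named by rule, in all pericytes (black) and in pericytes that passed no other gate (orange). Arrowheads mark Ccl7, with 0 UMIs in the NeuroD1 library, and every gene keeps its side of 1 in both sets of cells.

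Lower genes of the NeuroD1 pericytes included transcripts typical of microglia and macrophages. The chemokine Ccl12 had 16 and 122 UMIs, lysozyme Lyz2 32 and 165, the protease inhibitor gene Wfdc17 1 and 55, and Lgals3bp 49 and 62. In microglia Ccl12 was at 1225 and 1607 CPM and Lyz2 at 1047 and 1691. These genes were also lower in NeuroD1 smooth muscle: Ccl12 at 3.86 and 490 CPM, Lyz2 at 1.93 and 126, Wfdc17 at 0 and 234 and Lgals3bp at 7.71 and 18.0. In endothelium Ccl12 was at 7.19 and 73.6 CPM, Lyz2 at 5.85 and 70.5, Wfdc17 at 1.34 and 17.8 and Lgals3bp at 132 and 151. The difference was thus not particular to pericytes. In pericytes that passed no other gate Ccl12 was at 6.93 and 393 CPM and Lyz2 at 37.4 and 333. The chemokine Ccl7 had 0 UMIs in NeuroD1 pericytes and 56 in GFP pericytes, and all 56 lay in 3 cells. Smooth muscle had Ccl7 at 0 and 400 CPM, and microglia at 305 and 77.3. Microglia markers took 0.0328% and 0.440% of pericyte UMIs, and their part in these differences was not tested.

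The remaining genes named as lower were of mixed function. Nr4a1, an immediate early nuclear receptor, was at 103 CPM in NeuroD1 and 468 in GFP pericytes, a ratio of 0.219 (0.166 to 0.288), and at 0.146 (0.105 to 0.201) in pericytes that passed no other gate. In smooth muscle it lay the other way, at 2447 and 1799 CPM, as in microglia, at 904 and 407. Nr4a1 was also lower in the NeuroD1 library in endothelium (488 and 1043 CPM) and astrocytes (13.1 and 43.7). Sdc4, a heparan sulfate proteoglycan, was at 59.2 and 186 CPM, the mitochondrial pyruvate carrier Mpc1 at 58.1 and 197, Tpd52 at 58.1 and 183, and the 14-3-3 protein Ywhah at 125 and 353. Ftl2, a ferritin light chain copy, had 6 and 101 UMIs (6.84 and 342 CPM), and its highest class in the GFP library was microglia at 897 CPM. Its difference was not particular to pericytes: it was at 17.9 and 897 CPM in microglia, 7.19 and 170 in endothelium, 5.79 and 162 in smooth muscle and 3.06 and 91.6 in astrocytes. The elongation factor Eef1a1 was at 330 and 817 CPM. The direction was the same in endothelium (513 and 895 CPM), smooth muscle (661 and 1115), astrocytes (204 and 370) and microglia (635 and 1871). Ftl2 and Eef1a1 have close copies elsewhere in the genome, so their counts are uncertain.

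Interferon response genes had the lowest median of the 20 lists. The median log2 ratio was -1.19 over 13 measured genes, of which 8 were at least 2-fold lower and none higher; over pericytes that passed no other gate it was -1.14, with 6 of 9 lower, against 7.39% of all measured genes higher and 5.8% lower in those cells. Ifitm3, an antiviral membrane protein, was at 1036 and 1973 CPM, a ratio of 0.525 (0.473 to 0.584), and at 1157 and 2587 in pericytes that passed no other gate. Bst2, which tethers virions, was at 58.1 and 153 CPM (51 and 45 UMIs), Xaf1 at 37.6 and 153 (33 and 45 UMIs), Ifi27 at 212 and 447 (186 and 132 UMIs), and the GTPase Gbp7 at 27.3 and 94.9 (24 and 28 UMIs). Ifitm2 did not share the difference, at 1305 and 1268 CPM. Over the same 13 genes the endothelial median was -0.31. Over the 6 genes also measured in smooth muscle it was -0.26 there and -1.0 in pericytes. Counts were low for most of these genes, and microglia markers were also lower in NeuroD1 pericytes; their part in the list was not tested.

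Antigen presentation and cytokine genes had negative medians over all pericytes, and the sign of the cytokine median depended on the processing. The antigen presentation list had a median log2 ratio of -0.30 over 15 genes, with 2 at least 2-fold higher and 4 lower, and of -0.24 in pericytes that passed no other gate, with 4 higher and 2 lower. The class I heavy chain H2-D1 was at 487 and 1603 CPM and the light chain B2m at 711 and 1444, and in pericytes that passed no other gate at 521 and 1053 and at 770 and 928. The class II genes H2-Ab1 (76 and 7 UMIs) and H2-Aa (67 and 9 UMIs) lay the other way. The cytokine and inflammatory list had a median of -0.45 over 23 genes with 4 lower, and of 0.16 over 19 genes, with 1 higher and 4 lower, in pericytes that passed no other gate. Cebpb, an inflammatory transcription factor, was at 166 and 732 CPM and stayed apart in pericytes that passed no other gate, at 180 and 911. Il34, a ligand of the microglial CSF1 receptor, was at 369 and 247 CPM, a ratio of 1.49 (1.15 to 1.95).

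Immediate early genes split. Of 22 measured, 4 were at least 2-fold higher and 6 lower, with a median log2 ratio of -0.18. Fos was at 990 and 447 CPM (ratio 2.21, 1.84 to 2.68), Ier3 at 247 and 71.2 (3.47, 2.22 to 5.73), and the secreted matricellular genes Cyr61 and Ctgf at 193 and 84.7 and at 116 and 50.8. Junb was at 578 and 1352 CPM (0.427, 0.374 to 0.488), Ier2 at 228 and 552 and the mRNA decay factor Zfp36 at 252 and 580, besides Nr4a1. Among pericytes that passed no other gate, 4 of 22 were higher and 5 lower, with a median of -0.25.

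Amyloid handling and lipid receptor genes had a median log2 ratio of 0.01 over 15 genes. Apoe, the main brain lipid carrier, was at 4773 and 9853 CPM, a ratio of 0.484 (0.462 to 0.508), and at 2312 and 3864 in pericytes that passed no other gate; astrocytes had 43564 and 38636. Lrp1, an endocytic receptor for ApoE and amyloid-beta, was at 427 and 715 CPM, a ratio of 0.597 (0.503 to 0.711). Of the list, 2 genes were at least 2-fold higher and 1, Apoe, lower; in pericytes that passed no other gate 1 of 14 was higher and 1 lower, with a median of 0.14. The solute carriers had a median of 0.21 over 18 genes, with 3 at least 2-fold higher, among them the amino acid transporters Slc1a5 (173 and 81.3 CPM) and Slc7a2 (66.1 and 30.5), and 1, the zinc transporter Slc39a1, lower. Slc6a20a, a proline transporter, was at 1560 and 912 CPM. None of 16 solute carriers reached 2-fold in pericytes that passed no other gate and the median was 0.05, and without Scrublet doublets the median was -0.11.

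Among housekeeping groups, the ribosomal protein genes had a median log2 ratio of -0.84 over 60 genes, with 21 at least 2-fold lower and 1, Rps4l, higher; the endothelial median over the same genes was -0.45 and that of smooth muscle -0.21 over 56 of them. In pericytes that passed no other gate the median was -0.55, with 8 of 56 lower and 1 higher. Ribosomal protein genes have many genomic copies, so single values are uncertain. Mitochondrially encoded genes had a median of -0.67 over 7 genes, with mt-Co1 at 2017 and 5589 CPM, and medians of -0.64 and -0.50 in endothelium and smooth muscle. The median mitochondrial share per pericyte was 2.06% and 3.57%. Nuclear genes of oxidative phosphorylation had a median of 0.08 over 79 genes, 3 past 2-fold each way. The cell cycle list had a median of 0.33 over 8 genes, with Ccnd2 (53 and 5 UMIs) past 2-fold.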

How the data were processed

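Each library is 1 deposited matrix of UMI counts, whole numbers per gene and barcode, for 53717 features. Per the submitters' processing notes, the authors used genome build mm39 and FastQC, fastp, cutadapt, STAR and featureCounts; versions and gene annotation are not given there. The protocol in the labels describes papain dissociation and a microwell chip, while another label names a different platform.

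Barcodes under 200 genes or over 20% mitochondrial UMIs were left out (131 and 104). Pericytes were chosen by the rule in the opening, with doublets kept. Other classes are gates on fixed markers, for cells that passed no other gate and not the pericyte gate. Neighbouring cells rich in the pericyte rule genes are therefore missing from them. Counts were summed per library and class and scaled to CPM. CPM intervals are exact Poisson, ratio intervals exact conditional binomial, and share intervals Clopper-Pearson; the interval of the share ratio is a log-normal approximation. UMIs of a sum are not independent samples of animals, so intervals cover counting error only. A gene counted as measured when the pericyte sums of the libraries added up to 30 UMIs or more.

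The members and the 20 lists were chosen with earlier results of these data known. Genes were named by rule: at least 50 UMIs in 1 sum and at least 25% of the highest gated class, then the top 12 each way by whichever end of the ratio interval is closer to 1 (mitochondrial, ribosomal, haemoglobin and sex-linked genes and Gm or Rik names were not eligible); 15 identity genes by the smaller fold over the next class; and list members. A few eligible genes are not reported here. On simulated counts for this comparison (53597 gene symbols run), intervals held the true ratio for 96.2% of 5893 unchanged genes and for 94.0%, 96.0%, 92.0% and 92.0% of 50 genes at ratios of 0.25, 0.5, 2 and 4. The simulated counts were independent Poisson draws, the model the intervals assume. They therefore check the calculation only and do not cover UMIs that crowd in a few cells. Scrublet ran in scanpy 1.11.5 under Python 3.11.15; pandas 2.3.3, numpy 2.4.6, scipy 1.17.1 and matplotlib 3.10.9 were also used.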

Additional observations from a re-analysis of the deposited data

Results flagged for a closer look

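A list is given here when its median log2 ratio was at least 0.4 in size in pericytes and in smooth muscle or endothelium, with opposite signs, and one of the 12 highest or 12 lowest genes when both counting intervals excluded equality on opposite sides. With 1 library per group no such difference was tested. The list of glucocorticoid, heat shock and metallothionein genes had a median log2 ratio of 0.45 in pericytes and -0.53 in smooth muscle, but the pericyte median was -0.20 once Scrublet doublets were removed. Smaller opposite medians, over genes shared with smooth muscle, included PDGF and Notch signalling (0.61 in pericytes and -0.14 in smooth muscle). Pericyte genes (0.43 and -0.03) and the cell cycle (0.35 and -0.10) also lay on opposite sides there. Against endothelium the cytokine list (-0.45 in pericytes and 0.16) and the glucocorticoid and heat shock list (0.45 and -0.13) had opposite medians. Opposite too were PDGF and Notch signalling (0.03 and -0.24), TGF-beta and BMP signalling (-0.05 and 0.12) and amyloid handling (0.01 and -0.05). Hspa1a had a log2 ratio of 2.64 in pericytes and -0.84 in smooth muscle, where the NeuroD1 and GFP sums held 2151 and 1651 UMIs. Hspa1b had 1.77 and -1.24, with 178 and 180 UMIs in smooth muscle. Nr4a1 had -2.19 in pericytes and 0.44 in smooth muscle, with 1269 and 400 UMIs there.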

How the results depend on the processing

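No paired analysis was possible because each group is 1 library. The share ratio of 1.58 stayed within its counting error under 5 of 11 alternatives. It was 3.09 with at least 500 genes per cell, 1.92 without pericytes that passed another gate, 1.17 outside the microglia and choroid plexus gates, 1.22 when cells with at least 10% Ttr were left out as well, 1.07 with the NeuroD1 UMIs drawn down by the ratio of median depths, and 0.891 per endothelial cell. The 465 higher and 398 lower genes became 1192 and 1042 with at least 10 UMIs, 97 and 131 with at least 100 UMIs, 190 and 196 after thinning to 500 UMIs per cell, 139 and 146 at 3-fold, and 217 higher after drawing down. Without pericytes that passed another gate, medians were 0.17 for pericyte genes, -0.14 for contractile, -0.34 for basement membrane, -0.059 for oxidative phosphorylation and -0.55 for ribosomal protein genes; the last was also -0.65 thinned, -0.65 as a mean over cells and -0.63 without Scrublet doublets. The causes of these shifts were not tested, apart from the counts, where fewer or more genes pass by construction. Of 260 list medians 252 stayed within the 95% interval of the first median, and 25, in 10 of 20 lists, had the opposite sign. That interval reflects the spread between the genes of a list, not counting error, and is wide for short lists. The cytokine median of -0.45 became 0.15 with at least 100 UMIs, 0.09 with at least 1% and 5 UMIs, 0.16 without pericytes that passed another gate, 0.28 for genes at 25% or more of the highest class and 0.14 drawn down. The glucocorticoid and heat shock median of 0.45 became -0.20 and that of solute carriers, 0.21, became -0.11 without Scrublet doublets, and the cell cycle median of 0.33 became -0.16 thinned. Of 240 named gene values 212 stayed within their counting interval, and none changed direction. Drawing down and leaving out cells rich in Ttr were added after seeing the data. At a median of 662 UMIs per GFP pericyte, genes under about 30 UMIs in the sums could not be compared.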

Other observations

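Several transcripts that every cell uses were nearly missing from the pericyte sums: mt-Co2, mt-Co3, mt-Atp8 and mt-Nd4l had 0 UMIs in both libraries, mt-Atp6 had 0 and 2, Gapdh 6 and 1, and Pgam1 3 and 0. Low values of genes with close copies are therefore not read as low expression.

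The Saa transcripts were spread rather than crowded: the 165 NeuroD1 pericytes with Saa1 or Saa2 had a median depth of 1281 UMIs against 1124 in those without, and 20 had both. Haemoglobin was the opposite, with 4754 of 4913 UMIs in 10 cells.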
